A study of Mus musculus with 28 samples.

Results

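The cytosolic ribosome is built from ribosomal RNA and a set of proteins that are made in near-equal amounts, named Rpl for the large subunit and Rps for the small subunit. Their messages are short, abundant in every cell type of the liver, and many begin with a run of pyrimidines (C or T) through which growth signalling by mTOR controls their translation. Each gene also has processed pseudogene copies in the genome, so a probe may bind more than 1 transcript.

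The genes described here were chosen by name. They are the symbols Rpl or Rps with a number, followed by nothing or by 1 of the letters a, x, y and l, together with Rplp0, Rplp1, Rplp2 and Rpsa, with the S6 kinases and pseudogenes left out. This gave 81 genes on 170 probes, of 20660 gene symbols on the array: 50 of the large subunit and 31 of the small subunit. A single probe stood for 29 of them and several probes for 52. Rps4l, annotated as a pseudogene, was left out, and the fusion gene Fau, which encodes a ubiquitin-like protein joined to a ribosomal protein, does not carry such a name and was counted with the translation factors.

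RNA came from formalin-fixed, paraffin-embedded (FFPE) whole livers of male B6C3F1 mice aged 42 days per the labels, in tissue blocks stored for 16 years. The 3 exposed mice drank water with 0.05% phenobarbital, a barbiturate that induces drug metabolism in hepatocytes, for about 4 weeks, and the 3 control mice drank water alone. The series compares ways to measure such RNA: the same 6 mice were run on one-colour arrays (Cy3), 6 with a 1X and 6 with a 1.5X input of cDNA, and on two-colour arrays (Cy5 and Cy3), 8 with each input. Each set was 1 slide, and the slides were scanned in 2 sessions, of which one held the one-colour 1X and two-colour 1.5X sets and the other held the other sets. Within a format, input, slide and session therefore cannot be told apart.

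The exposure was checked in 4 genes that phenobarbital is known to induce. Cyp2b10, Cyp2c55, Gstm3 and Por all passed the test as higher over both one-colour inputs, Gstm3 by 2.97 (SE 0.18) and Por by 2.39 (SE 0.17) on the log2 scale. All 4 also passed in the two-colour 1X set, with smaller differences, Gstm3 by 2.59 (SE 0.13) and Por by 1.74 (SE 0.10). The median of the 4 was 2.13 there and 3.35 over both one-colour inputs. In the two-colour 1.5X set 2 of the 4 were tested and neither passed. Hepatocyte markers were present: 7 of the 8 listed (Alb, Ttr, Apoa1, Apoc3, Serpina1a, Tf, Fgb, Hnf4a) were on the array and all 7 were bright enough to be tested. Pancreas markers were also well above background, with 9 of 10 tested and a median difference between exposure groups of -0.97, none past the threshold; their part in the results was not tested. Whole liver was measured, so fewer cells of a type and less RNA per cell cannot be told apart.

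Promoter sequences of 61 of the 81 genes were at hand, with 73 annotated start sites (RefSeq, GRCm38.p6). The windows below, 15 bases before and 15 bases from the annotated start on, are shown for genes that the results turn on and for Rpl27a, whose run is long. Capitals mark the longest run of at least 6 pyrimidines that opens with C in the window, whether or not it reaches the transcript. A C followed by pyrimidines is the form of the tract that marks these messages. The marked runs of Rpl35a, Rps21, Rpl32l and Rpl27a cover the annotated first base. Those of Rps15a and Rpl6 end before it, and in Rps15a a shorter run, left in lower case, covers it.
Rps15a: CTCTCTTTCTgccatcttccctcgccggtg
Rpl35a: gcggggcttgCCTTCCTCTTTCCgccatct
Rps21: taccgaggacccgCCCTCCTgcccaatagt
Rpl32l: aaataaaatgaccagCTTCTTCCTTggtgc
Rpl27a: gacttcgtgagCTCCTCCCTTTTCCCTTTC
Rpl6: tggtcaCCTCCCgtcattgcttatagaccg
Rplp0: gtcttcgggtttcgaggaccgcctggttct
Rps3: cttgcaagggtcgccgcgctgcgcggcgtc

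These windows lie at chr7:118116133-118116162 on the minus strand for Rps15a, chr16:33056467-33056496 on the plus strand for Rpl35a, chr2:180257364-180257393 on the plus strand for Rps21 and chr10:20208424-20208453 on the plus strand for Rpl32l. Those of Rpl27a, Rpl6 and Rplp0 lie on the plus strand at chr7:109519180-109519209, chr5:121204486-121204515 and chr5:115559452-115559481, and that of Rps3 on the minus strand at chr7:99483695-99483724. The table holds 3 annotated starts for Rpl35a and 2 for Rps21; the start shown is the 1 with such a run, and the windows of their other starts held none. Each window spans the end of the promoter and the first bases of the transcript. Such a run was found in 37 of the 73 windows (50.7%), against 22.5% of the windows of all 32851 start sites in the table and 26.7% of those of mitochondrial ribosomal protein genes. A run of 6 or more pyrimidines lay over the annotated first base in 27.4% of the windows, against 7.25% of all and 2.67% of the mitochondrial ones. The letters CCGGAAG, the core bound by ETS factors, stood on either strand of the 300-base promoter sequence in 35.6% of the start sites, in 34.7% of the mitochondrial ones and in 8.86% of all. Annotated starts can be off by some bases, and a match is a description of the letters only. The windows of Rplp0 and Rps3 held no such run.

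The first question was whether probes for these short, abundant messages give a signal above background in fixed tissue at all. Most did, in every format but 1 channel. How much of that signal came from other transcripts, such as those of pseudogenes, was not tested. A probe is called well above background by the scanner software when its signal exceeds the local background by a set margin; for each gene the brightest of its probes was used. On all 12 one-colour arrays, in all 16 Cy3 channels and in the 8 Cy5 channels of the two-colour 1X set, 78 of the 81 genes were well above background. Over the same readings the share of all gene symbols fell from 56.6% ± 2.48 (SD, n = 6 arrays) in the one-colour 1X set to 27.8% ± 4.41 (SD, n = 8) in the Cy5 channel at 1X. The ribosomal protein genes stood at 96.3% in both the one-colour 1.5X set and that Cy5 channel, with no spread between arrays.

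The exception was the Cy5 channel of the two-colour 1.5X set. The raw signal of its negative control spots was low, with array medians of 65 to 69, against 74 to 96 in Cy5 at 1X. There 41 to 68 of the 81 genes were well above background (68.4% ± 12.3, SD, n = 8 arrays), with 6.52% ± 2.35 of all gene symbols. In the same channel the mean share was 9.62% for mitochondrial ribosomal protein genes, 22.1% for proteasome subunits and 42.6% for oxidative phosphorylation subunits. Of the ribosomal protein genes, 33 were well above background on all 8 of these arrays, and 10 on none. Those 10 include 7 that were above background in every other reading, among them Rpl30, Rpl39, Rplp1, Rps18, Rps19 and Rps4x.

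**Figure D1:**
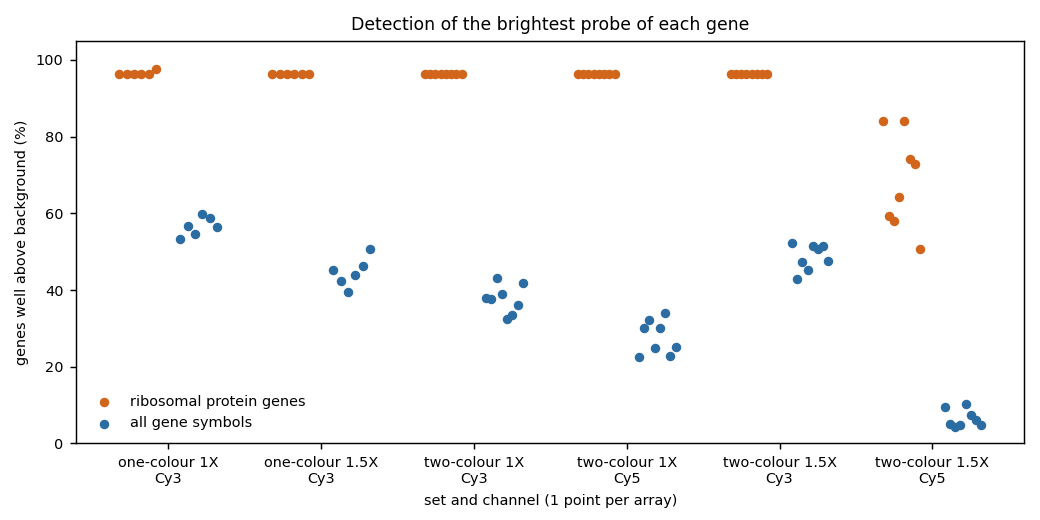
Percent of genes well above background, 1 point per array, for the 81 ribosomal protein genes (orange) and all gene symbols (blue), by set and channel. The ribosomal protein genes sit at 96.3% or more everywhere except in the Cy5 channel at 1.5X, where they spread from 41 to 68 genes of 81.

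The 3 genes that were not detected are paralogs known for restricted expression. Rpl3l, the muscle form of Rpl3, and Rpl39l, a form of Rpl39 known from testis, were well above background on none of the readings. Rpl10l, the testis form of Rpl10, was above it on 1 of the 12 one-colour arrays and on no two-colour array. Rps27l, a widely expressed paralog of Rps27, was above it in every reading outside the Cy5 channel at 1.5X.

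Detection also depended on the probe. Of the 170 probes, 152 were well above background on all 12 one-colour arrays, 9 on some and 9 on none. Among the 9 on none, 6 belonged to genes with another probe above background on all 12, such as Rpl21, Rpl30, Rpl39 and Rps15a. Counted over all probes, the mean share was 92.5% in the one-colour 1X set and 43.8% in the Cy5 channel at 1.5X. Probe sequences and transcript positions were not used here. A Rpl23 probe printed as 10 spots gave the spot error: the SD of its log2 signal within an array was 0.09 to 0.18 at 1X and 0.10 to 0.21 at 1.5X.

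The second question was whether phenobarbital changed these genes. Over both one-colour inputs, with the mean of a mouse's 2 arrays as its value, none of the 78 genes tested passed the threshold (limma with Benjamini-Hochberg adjustment, adjusted p below 0.05), where 0.749% of all 12813 genes tested did. At an unadjusted p below 0.05 there was 1 gene, Rps15a, against 13.3% of all genes by limma, and the smallest adjusted p was 0.346. The differences ran from -0.25 to 0.45 on the log2 scale with a median of 0.015, beside a median of -0.020 over all genes. The median was 0.011 for 47 large subunit genes and 0.038 for 31 small subunit genes. By mouse, the median of the 78 genes relative to the control mean was -0.05, 0.08 and -0.04 in control mice 1 to 3 and 0.02, -0.04 and 0.06 in exposed mice 1 to 3. The exposed mice lay within the range of the controls.

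The intervals bound what could have been missed. The 95% interval of the difference lay within 1 log2 unit of 0, a 2-fold change, for all 78 genes, against 80.4% of all genes tested. It lay within 0.5 log2 units for 60 of the 78, against 23.8% of all genes. The median SD within exposure groups was 0.12 for the 78 genes and 0.24 for all genes tested. Brightness was not matched in these comparisons.

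**Figure D2:**
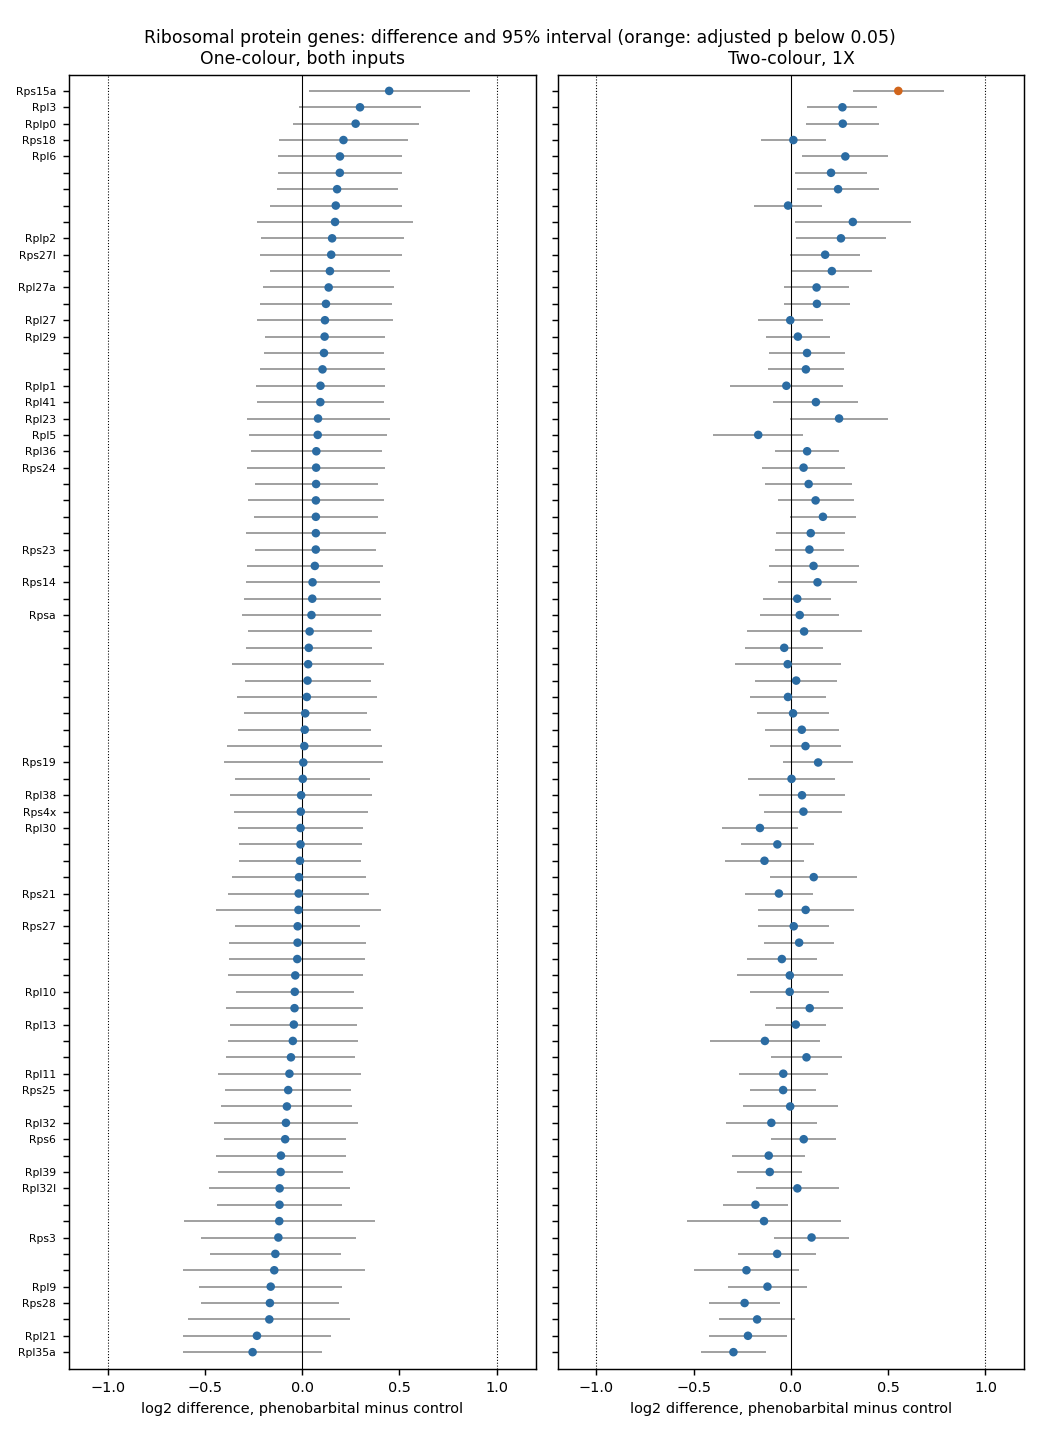
Log2 difference, phenobarbital minus control, with its 95% interval for the 78 ribosomal protein genes tested, over both one-colour inputs (left) and in the two-colour 1X set (right), in the order of the one-colour differences, with names for genes described in the text; dotted lines mark a 2-fold change. All intervals lie inside the dotted lines in both panels, and Rps15a in the two-colour 1X set is the 1 gene past the threshold.

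The separate sets gave wider intervals on the one-colour arrays and in the two-colour 1.5X set. The interval lay within 0.5 log2 units for 18 of 78 genes at one-colour 1X, 53 of 78 at one-colour 1.5X, 74 of 78 at two-colour 1X and 13 of 46 at two-colour 1.5X, against 4.46%, 12.8%, 79.9% and 10.9% of all genes. It lay within 1 log2 unit for every gene tested in these sets except 1 at one-colour 1.5X. The 4 check genes had smaller differences in the two-colour 1X set than over both one-colour inputs. Equal widths in log2 units may therefore not bound the same change in both formats. No member of the 78 tested was called in the one-colour 1X set (0.161% of all genes were) or in the one-colour 1.5X set (0.237% of all genes). An unadjusted p below 0.05 was found for 0 of them at 1X (8.59% of all genes) and for 1 at 1.5X (15% of all genes). In the two-colour 1.5X set, 46 were tested and none was called, as none of all 1665 genes was (0%). At an unadjusted p below 0.05 there were 0 of the 46 and 28 of the 1665 (1.68%). Of the 4 check genes, 2 were tested there and both had an unadjusted p below 0.05. Gstm3 was at 1.32 (SE 0.21) and Por at 0.60 (SE 0.20), and neither passed (adjusted p = 0.962 and 0.999 by limma). The absence of calls in this set therefore says little about the 46 genes. The test of whether the phenobarbital difference itself differed between inputs called 0 of 78 (0% of all genes), and that between formats called 0 of 78 (0.0363% of all genes). Their smallest adjusted p was 0.864 and 1.00.

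On the two-colour 1X arrays 1 of the 78 genes was called, as higher, against 6.11% of all 8261 genes tested (3.32% as higher). At an unadjusted p below 0.05 there were 13 of the 78, against 24.7% of all genes. The median difference was 0.039, beside a median of -0.0072 over all genes. Above 0 were 24 of 31 small subunit and 24 of 47 large subunit genes, and 3993 of all 8261 genes. Over both one-colour inputs 18 of 31 small and 25 of 47 large subunit genes were above 0. In the two-colour 1.5X set 12 of 20 and 13 of 26 were. The gene called was Rps15a, a protein of the small subunit. Its normalised log2 intensity was 9.45, 9.59 and 9.60 in control mice 1 to 3 and 10.06, 9.95 and 10.28 in exposed mice 1 to 3. All exposed mice were above all controls. The difference was 0.55 (SE 0.10, 95% interval 0.32 to 0.79, adjusted p = 0.0183 by limma). With mice taken from the channel source names, which give other mouse numbers on 4 of the arrays, the adjusted p was 0.106. The adjusted p was also above 0.05 without control mouse 1 (0.0606), 2 (0.0574) or 3 (0.0623), or without exposed mouse 1 (0.0606). With the 2 arrays of conflicting labels included the difference was 0.39 with an adjusted p of 0.343. The labels give those 2 arrays opposite exposures, so in that fit a smaller difference and swapped channels cannot be told apart.

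On the one-colour scale (log2 signal relative to the array's 75th percentile), Rps15a was at 1.41, 1.76 and 1.70 in the controls and at 1.81, 2.19 and 2.21 in the exposed mice. The groups did not overlap, but the difference of 0.45 (SE 0.18, adjusted p = 0.346) did not pass the test. By input it was 0.30 (SE 0.24) at 1X and 0.59 (SE 0.18) at 1.5X. These values rest on 1 probe. Another Rps15a probe, well above background in all one-colour arrays, gave 0.03 (SE 0.15) in the one-colour and -0.08 (SE 0.09) in the two-colour 1X fit of every probe on its own, and the third probe was above background on no array.

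Of the large subunit, Rpl3, a protein close to the peptidyl transferase centre, was the 1 gene whose groups did not overlap, in the same direction, in each of the one-colour 1X, one-colour 1.5X and two-colour 1X sets, where 6.91% of the 8259 genes tested in all 3 sets behaved so. Its one-colour values over both inputs were 0.89, 1.03 and 0.92 in the controls and 1.25, 1.18 and 1.30 in the exposed mice. The difference was 0.30 (SE 0.13, adjusted p = 0.395), and in the two-colour 1X set 0.26 (SE 0.08, adjusted p = 0.0922). Neither passed the threshold.

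Rplp0, the base of the ribosomal stalk that recruits translation factors, is often used as a reference gene. Its values were 1.69, 1.82 and 1.81 in the controls and 1.94, 2.15 and 2.07 in the exposed mice. The groups were apart, with a difference of 0.28 (SE 0.14, adjusted p = 0.454). In the two-colour 1X set it was 0.27 (SE 0.08, adjusted p = 0.101). The other stalk proteins were at 0.15 (Rplp2, SE 0.16) and 0.094 (Rplp1, SE 0.14) in the one-colour fit. Rpl6, a large subunit protein, was at 0.19 (SE 0.14) and Rps18, of the head of the small subunit, at 0.21 (SE 0.14) over both inputs. Rps18 was at 0.44 (SE 0.20) at 1X and -0.013 (SE 0.15) at 1.5X.

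At the other end stood Rpl35a, Rpl21, Rps28 and Rpl9, among others. Rpl35a, a large subunit protein, had one-colour values of 1.05, 1.32 and 1.19 in the controls and 1.10, 0.83 and 0.87 in the exposed mice, so that exposed mouse 1 overlapped the controls. The difference was -0.25 (SE 0.15, adjusted p = 0.531). In the two-colour 1X set its groups were apart, at 9.51, 9.63 and 9.62 against 9.30, 9.31 and 9.25, and the difference of -0.30 (SE 0.07) had an adjusted p of 0.0508. Tested as a probe on its own it passed, beside Rps15a, as 2 of the 147 member probes tested (6.39% of all probes tested were called), while its other probe was at -0.04 (SE 0.10). Over both inputs Rpl21 was at -0.23 (SE 0.16), Rps28 at -0.17 (SE 0.15) and Rpl9 at -0.16 (SE 0.16).

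**Figure D3:**
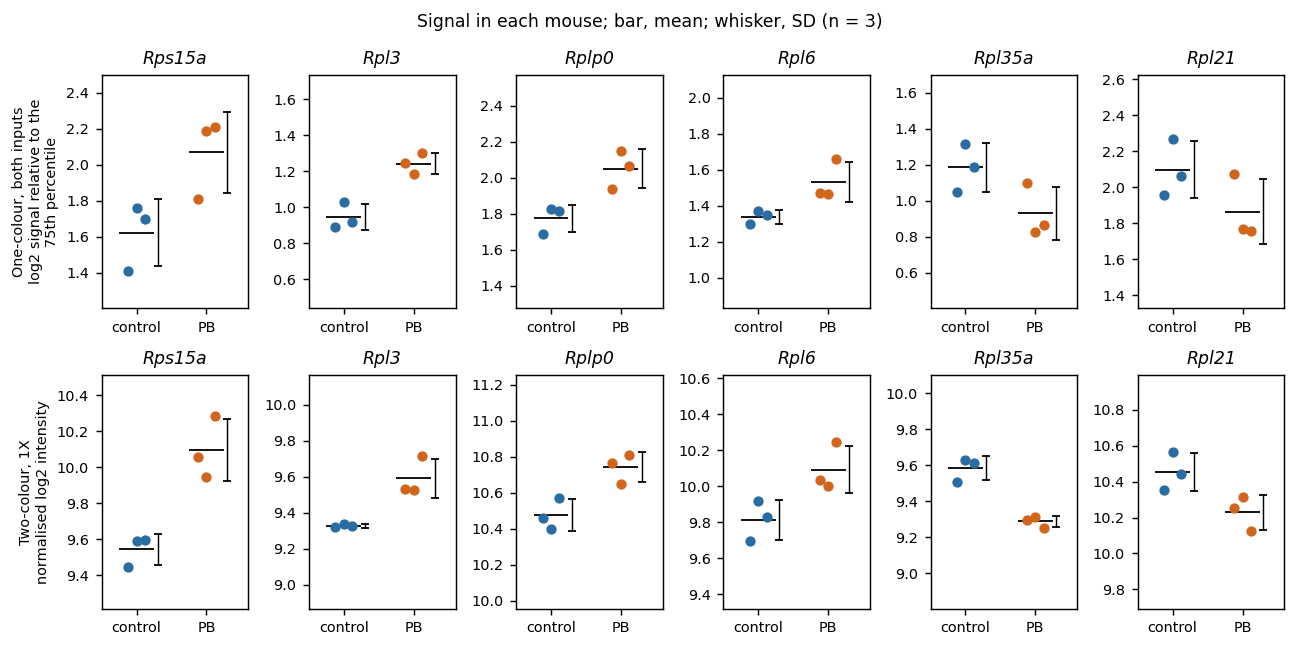
Signal of 6 ribosomal protein genes in each mouse, over both one-colour inputs (top, log2 signal relative to the 75th percentile) and in the two-colour 1X set (bottom, normalised log2 intensity); every panel spans the same number of log2 units, bars are means and whiskers SD of 3 mice. Exposed mice lie above all controls for Rps15a, Rpl3, Rplp0 and Rpl6 in both rows, and below all controls for Rpl35a and Rpl21 in the two-colour row.

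Genes whose exposure groups do not overlap were also counted, and the difference of these shares from those of all genes was not tested. Over both one-colour inputs they were 9 of the 78 genes (11.5%), against 18.5% of all genes, and in the two-colour 1X set 21 (26.9%), against 32.9%. In the one-colour 1X set they were 6 and in the 1.5X set 12, against 14% and 20.8% of all genes. At 1.5X on two-colour arrays it was 0 of 46, against 3.9%. Of genes with known roles outside these, Rps6, the target of the S6 kinases, was at -0.09 (SE 0.13) over both inputs, and Rps3, at the mRNA entry of the small subunit, at -0.12 (SE 0.17). Rpl5 and Rpl11, which bind 5S RNA and can restrain Mdm2, were at 0.08 (SE 0.15) and -0.07 (SE 0.16). Rpsa, also known as a laminin receptor, was at 0.05 (SE 0.15).

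Probes of 1 gene gave differences of their own. In the one-colour fit of every probe, 155 member probes were tested and 0 were called (0.742% of all 16312 were). Of 49 genes with at least 2 probes tested, 29 had probes on both sides of 0, and the median range between probes of a gene was 0.19. The range was above 0.5 for 1 gene. The matching shares of all genes with several probes are not given here.

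Other genes of the translation machinery are given from lists made for this tissue and exposure. Over both one-colour inputs none of the genes tested was called among 29 translation factors (median difference 0.0031), 24 ribosome biogenesis genes (0.13), 19 genes of growth signalling to the ribosome (-0.037) or 64 mitochondrial ribosomal proteins (-0.13), beside the median of -0.020 over all genes. The largest differences of each list were -0.25 (SE 0.17) for Eif2s2 and -0.24 (SE 0.16) for Eif2s3x, subunits of initiation factor eIF2, and 0.65 (SE 0.23) for Ddx21 and 0.52 (SE 0.19) for Nop56, which act in the nucleolus. They were -0.56 (SE 0.16) for Eef2k and -0.53 (SE 0.19) for Tsc1, an inhibitor of mTOR signalling, and -0.81 (SE 0.27) for Mrpl39 and 0.50 (SE 0.31) for Mrps17 among the mitochondrial proteins. Proteasome subunits had a median of 0.031 over 35 genes and oxidative phosphorylation subunits of -0.15 over 77, with 0 calls in either.

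In the two-colour 1X set 1 gene of these translation lists passed. It was 1 of the 15 genes tested of growth signalling to the ribosome (6.67%), near the 6.11% of all genes called in that set. Eef2k, the kinase that inhibits elongation factor 2, was lower (log2 difference -0.42, SE 0.08, adjusted p = 0.0241), and over both one-colour inputs it was at -0.56 (SE 0.16, adjusted p = 0.206). None of 28 translation factors, 14 biogenesis genes and 53 mitochondrial ribosomal proteins tested in that set was called. In the same set the hepatocyte markers Ttr and Alb were lower (-0.61, SE 0.09, and -0.39, SE 0.07). The macrophage gene Mpeg1 was higher (0.52, SE 0.09), as it was over both one-colour inputs (0.95, SE 0.15). Of the marker lists, 2 of 7 hepatocyte and 1 of 5 macrophage genes tested were called in the two-colour 1X set, against 6.11% of all genes. None was called there among 4 endothelium, 4 stellate cell and fibroblast, 2 cholangiocyte, 3 red cell and 8 pancreas genes tested. Of the 5 macrophage genes, 3 were above 0 and 2 below, with a median of 0.049. Over both one-colour inputs 0 of 7 hepatocyte genes were called, against 0.749% of all genes. The part of these marker genes in the Rps15a and Eef2k results was not tested.

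The input of cDNA was compared next. Between the one-colour sets, 31 of the 78 genes were higher and 7 lower at 1.5X (limma with the mouse as a term, 6 mice). That is 38 in all, against 59.4% of all 12801 genes tested (34.4% as higher and 25% as lower). The median difference was 0.16 for the 78 genes and 0.11 for all. The raw signal of the negative control spots, a measure of background, moved with the input: its median was 54 to 82.8 on the 1X arrays and 216 to 277 on the 1.5X arrays. Its part in these differences was not tested.

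Rps3 changed most. Its one-colour signal was 3.76, 3.72 and 3.79 in the controls and 3.31, 3.50 and 3.89 in the exposed mice at 1X, and 0.69, 0.85 and 1.16 and 0.59, 1.02 and 0.93 at 1.5X. Every mouse was lower at 1.5X, by 2.79 on average (log2 difference -2.79, SE 0.10, adjusted p = 2.71e-07). Both Rps3 probes showed it, at -2.79 (SE 0.11) and -2.51 (SE 0.09) in the fit of every probe. The next were Rpl6 (1.19, SE 0.10), Rpl13 (1.18, SE 0.10), Rpl32l, an Rpl32-like gene (-1.01, SE 0.10), and Rps21 (1.00, SE 0.09), each in the same direction in all 6 mice. Rpl32 itself was higher by 0.40 (SE 0.12) in 5 of 6 mice; whether the Rpl32l probe also binds its transcript was not tested.

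Probes of the same gene could move in opposite directions. Among 49 genes with at least 2 probes compared, 7 had called probes in both directions and 10 a range above 1 log2 unit. The median range was 0.45. Of all single probes tested 57.1% were called, but the matching shares of all genes with several probes are not given here. These counts are therefore not read as particular to ribosomal protein genes. Rplp0 had 3 probes at 0.68 (SE 0.10), 1.63 (SE 0.14) and -0.94 (SE 0.10). Rps25 had probes at -0.57 (SE 0.09) and 1.28 (SE 0.15), and Rpl27 at -0.05 (SE 0.10) and 1.87 (SE 0.13). The phenobarbital differences of those same Rplp0 probes were 0.28 (SE 0.14), 0.21 (SE 0.15) and 0.11 (SE 0.16).

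The two-colour arrays gave the input contrast a second time, in the Cy3 channel scaled in the same way. Here 8 of the 78 genes were higher and 55 lower at 1.5X (79.3% of all genes tested were called, 66.9% as higher and 12.4% as lower), with a median of -0.45 for the 78 genes and 0.75 for all genes. A gene entered this contrast if its probe was well above background on every array used of either input. The mean share of all gene symbols well above background in Cy3 was 37.7% at 1X and 48.6% at 1.5X. Genes could thus enter through the input where they are high, and the part of this filter in the counts was not tested. The negative control spots of this channel had array medians of 72.5 to 107 at 1X and 67 to 95 at 1.5X. Rps3 was at 0.59, 0.62 and 1.01 in the controls and 0.26, 0.72 and 0.38 in the exposed mice at 1X, and at 2.56, 2.70 and 2.68 and 2.12, 2.52 and 2.88 at 1.5X. It was higher at 1.5X in all 6 mice, by 1.98 (SE 0.13), the reverse of the one-colour arrays. Rpl6, Rpl13 and Rps21 were lower at 1.5X in this channel (-0.87, SE 0.12; -0.83, SE 0.09; -0.96, SE 0.10) and Rpl32l was higher (0.95, SE 0.11), each in all 6 mice.

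Over the whole family, 30 of 78 genes (38.5%) moved one way in all 6 mice on the one-colour arrays and the other way in all 6 mice in the Cy3 channel, and 3 (Rps23, Rpl41 and Rps4x) moved the same way. Among all 11353 genes compared, 32.5% moved opposite ways and 7.4% the same way. The test of the difference between formats within mice called 53 of the 78, against 65.9% of all genes. The one-colour 1X and two-colour 1.5X sets were scanned in the same session, so a contrast between inputs is, in opposite order, also a contrast between sessions.

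The directions depend on the scaling. With the 75th percentile taken over all probes, 65 genes were higher and 3 lower on the one-colour arrays, while 1 was higher and 77 lower in the Cy3 channel; 64 then moved opposite ways in all mice and 2 the same way, against 52.0% and 2.18% of all genes. The scaling moved all genes: the median over all genes was then 0.44 on the one-colour arrays and -0.62 in the Cy3 channel, beside 0.48 and -1.82 for the 78 genes. Rps3, Rpl6, Rpl13 and Rps21 kept opposite directions between the formats under that scaling, and Rpl32l did not (-0.68 and -0.42). Relative to the median of the 78 genes, which scaling an array as a whole does not alter, Rps3 was at -2.94 on the one-colour arrays and at 2.43 in the Cy3 channel.

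**Figure D4:**
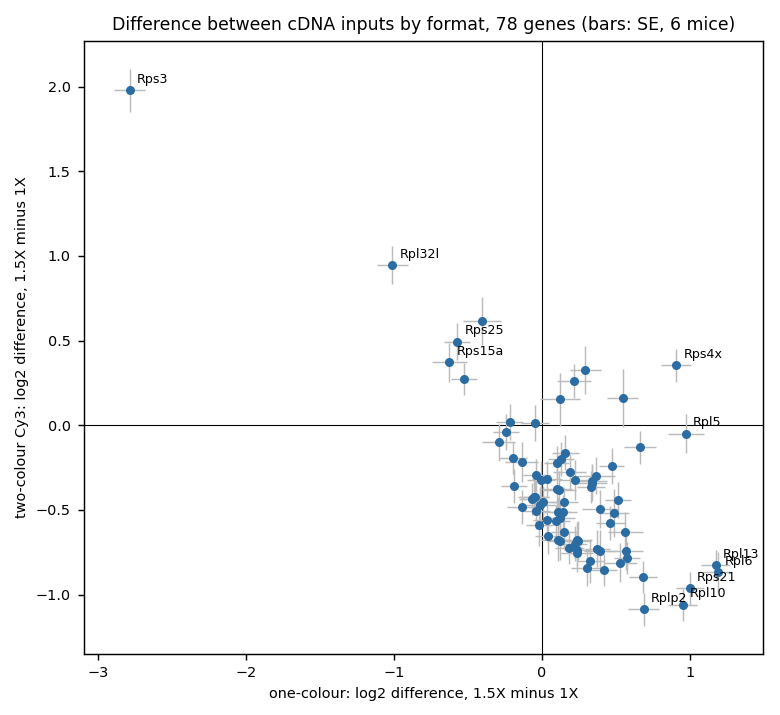
Log2 difference, 1.5X minus 1X input, for 78 ribosomal protein genes on the one-colour arrays (x axis) and in the Cy3 channel of the two-colour arrays (y axis); bars are SE over 6 mice. Rps3 lies at -2.79 and 1.98, and Rpl6, Rpl13 and Rps21 lie in the opposite corner.

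**Figure D5:**
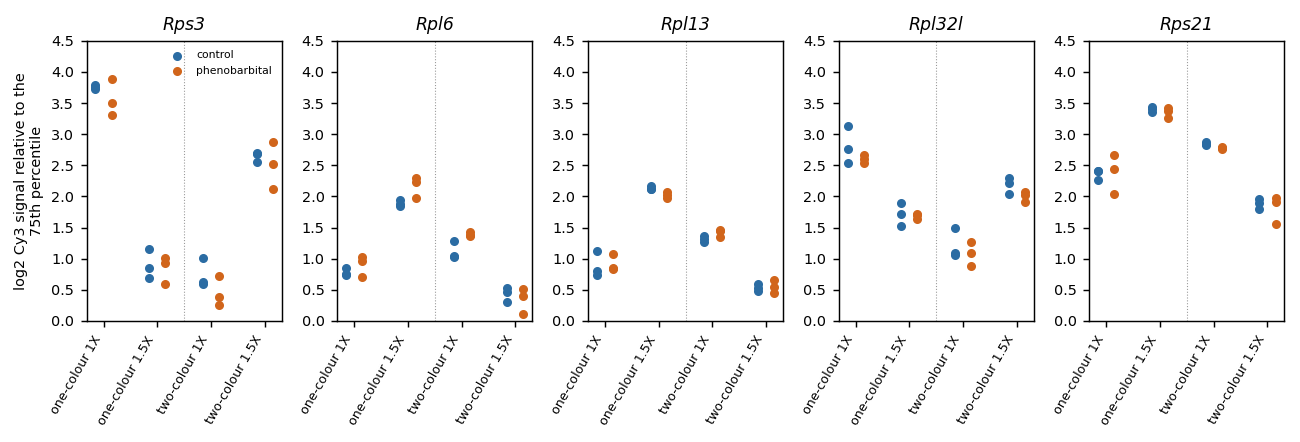
Log2 Cy3 signal relative to the 75th percentile in each mouse for the 5 genes with the largest one-colour input difference, in the 4 sets; controls in blue, exposed mice in orange, and the scale is set within each format. For Rps3 the one-colour 1X and two-colour 1.5X sets are high and the other sets low, and the exposure groups overlap in each.

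The phenobarbital difference of the same genes was also set side by side between inputs. The phenobarbital difference of Rps3 was -0.20 (SE 0.21) at 1X and -0.05 (SE 0.20) at 1.5X, neither past the threshold. The lowest difference between inputs in the phenobarbital effect was -0.45 (SE 0.21) for Rps18, with an adjusted p of 0.865 by limma.

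The dyes were compared on the two-colour arrays, with repeats averaged to 6 array ratios in each set. Arrays that share mice were treated as independent in this test. In the 1X set none of the 78 genes was called (1.47% of all 8258 genes tested were), 1 had an unadjusted p below 0.05 (5.85% of all genes), and the largest differences of Cy5 minus Cy3 were -0.33 (SE 0.11) for Rps3 and -0.16 (SE 0.07) for Rpl29. In the 1.5X set 4 of 46 genes were higher in Cy5 and 0 lower: Rplp2 (0.74, SE 0.19), Rpl38 (0.58, SE 0.17), Rps24 (0.56, SE 0.18) and Rps14 (0.55, SE 0.17). This stands against 37.8% of all 1662 genes tested (37.7% as higher and 0.12% as lower). A gene entered only if it was well above background in both dyes in at least 1 exposure group. In this set 6.52% of all gene symbols were so in Cy5, against 48.6% in Cy3. The genes tested were thus picked for a high Cy5 signal, and the part of this filter in the counts was not tested. Rpl36 was at 0.74 (SE 0.27, adjusted p = 0.0724). The median was -0.10 for the 46 genes and 0.36 for all. With the scanner's own dye-normalised signals the called genes were others: Rps23 (-0.93, SE 0.22) and Rpl9 (-0.70, SE 0.19), both lower in Cy5, while Rpl38 was at -0.27 (SE 0.18) and Rplp2 at 0.44 (SE 0.19).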

How the data were processed

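Each array was read with Agilent Feature Extraction; per the file headers the deposited tables hold an intensity per spot, background-subtracted by the authors, and detection flags (other). For arrays with both dyes the authors also deposited a log10 ratio, Cy5 to Cy3. The deposited value table holds the same numbers. The protocols name Qiagen FFPE RNeasy, Sigma WTA2 and KREAtech ULS kits.

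Probes were named through RefSeq accessions (GRCm38.p6, names only); 27235 of 55681 probes got a symbol, and other probes kept the file's name in counts of all genes. Repeated spots were averaged, and the probe with the highest mean one-colour signal stood for a gene. One-colour values were log2 processed signals minus the 75th percentile, taken over those probes that every array of a set detected. Two-colour values came from median signals by normexp (offset 50), loess (span 0.3) and Aquantile, averaged over Cy3 and Cy5 for each mouse. Genes entered a test if every array of 1 exposure group or more detected the probe as well above background. Outlier spots were left out (0 among the brightest probes of the members), and no probe's spot was flagged as saturated.

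In the two-colour 1X set 6 arrays entered the fit; on arrays 4 and 8 the description and channel labels give opposite exposures, and on 4 others they give different mouse numbers, of which the description was used. The mouse was the replicate (n = 3 per group), except in the dye contrasts. Those used 6 array ratios in each set, on which every mouse recurs. Their SE and adjusted p treat arrays that share mice as independent. Tests across genes were made in limma 3.58.1 (R 4.3.3), adjusted by Benjamini-Hochberg over all genes tested, threshold 0.05, and were tested on simulated data. Alternatives were other scalings, filters, probes and mouse labels, and leaving out each mouse. Arrays have no count depth, and their number limits the precision.

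The members, gene lists and tests were chosen with earlier results of these data known. Named genes were those past the threshold for phenobarbital, the 5 highest and 5 lowest differences over both inputs, the undetected genes and listed paralogs, the 5 largest input and dye differences, and of related lists the called genes and those with the largest change. Some genes that this rule names are not reported here. Genes of known role, and genes named for their probes, were added after their values were seen. Figures used matplotlib 3.10.9 in Python 3.11.15.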

Additional observations from a re-analysis of the deposited data

Results flagged for a closer look

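The 5 genes with the largest one-colour input difference had input differences that differed between the formats, by limma on the differences within 6 mice (adjusted over 11353 genes). The one-colour difference minus the Cy3 difference was -4.77 (SE 0.20, adjusted p = 1.63e-07) for Rps3 and -1.96 (SE 0.19, adjusted p = 1.63e-05) for Rpl32l. It was 2.06 (SE 0.19) for Rpl6, 2.00 (SE 0.16) for Rpl13 and 1.97 (SE 0.17) for Rps21, with adjusted p of 1.34e-05, 5.14e-06 and 9.19e-06. All 6 mice moved opposite ways for each of the 5 genes. The same test called 53 of the 78 members and 65.9% of all genes, and 32.5% of all genes moved opposite ways in all 6 mice. With the percentile over all probes Rpl32l was lower at 1.5X in both formats (-0.68 and -0.42). The genes were chosen for their one-colour difference. Within a format, input, slide and scan session cannot be told apart. In the difference between formats, a session difference cannot be told apart from an input difference that depends on the format.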

How the results depend on the processing

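In the two-colour 1X set the count of called members, 1 by the chosen processing, was 0 with the mice of the channel source names, 0 with arrays 4 and 8, 2 with every probe on its own, and 0 to 1 when a mouse was left out. The labels of arrays 4 and 8 give opposite exposures, so fits with them cannot show how firm a call is. The count stayed at 0 for both one-colour inputs together, for each input alone and for the two-colour 1.5X set under all alternatives run, the Cy3 filter (78 members tested) included. All-gene calls moved more: over both inputs from 96 to 28 without the filter, 62 without scaling, 143 with normexp and quantile and 10 to 102 without a mouse; at 1X from 30 to 7 without the filter and 5 to 16 without a mouse; at 1.5X from 31 to 7 without the filter, 160 with normexp and quantile and 6 to 142 without a mouse; in the two-colour 1X set from 505 to 100 with source-name mice 0 with arrays 4 and 8, and 213 to 644 without a mouse. The cause was not tested.

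With the mouse number as a replicate block, 0 members were called over both inputs, 0 in each single one-colour set and in the two-colour 1.5X set, and 1 in the two-colour 1X set; all-gene calls were 37, 3, 4, 0 and 715. Same-numbered mice had correlated deviations of 0.052, -0.12 and 0.28 over both inputs, and not every mouse correlated best with its own number.

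With no scaling between arrays the members had a median of -0.20 and all genes of -0.23, Rpl6 was at -0.021 and Rps18 at -0.0028. At 1.5X Rps18 was at 0.014 with the percentile over all probes. Without 1 mouse, differences reversed within ranges of -0.13 to 0.020 (Rps28) and -0.31 to 0.047 (Rpl9) at one-colour 1X, -0.060 to 0.055 (Rps18) at one-colour 1.5X, -0.021 to 0.038 (Rps18) at two-colour 1X and -0.13 to 0.10 (Rpl9) at two-colour 1.5X. Of the 78 members, 42 kept their sign over both inputs in all 6 fits without a mouse.

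The input contrast called 38 members, 68 with the percentile over all probes, 53 with normexp and quantile, 27 to 38 without a mouse, 63 in the Cy3 channel and 78 there with the percentile over all probes. In the Cy3 channel Rps3, Rpl6, Rpl13, Rpl32l and Rps21 were at 1.98, -0.87, -0.83, 0.95 and -0.96, and with the percentile over all probes Rps3, Rpl6, Rpl13 and Rps21 at 0.61, -2.24, -2.20 and -2.33. The dye contrast at 1.5X called 2 members with processed signals in place of 4.

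Over all member probes, the shares well above background were 92.5% and 91.6% (one-colour 1X and 1.5X), 90.2% and 85.4% (Cy3 and Cy5 at 1X) and 91.7% and 43.8% (Cy3 and Cy5 at 1.5X). Over the 81 genes, the shares by the flag for a positive and significant signal were 97.7%, 97.1%, 97.1%, 96.5%, 97.7% and 90.3%. Every probe on its own, the Cy3 filter and the Cy3 contrasts were added after the data were seen.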
